A study of Mus musculus with 6 samples.

Results

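Genes for 36 lysosomal enzymes and membrane proteins were followed in whole mouse testes on 6 exon arrays. They were chosen by name for their known place in the lysosome, by a rule that holds no measured value but with earlier results of these data known, and each was read through the probe sets that carry its symbol alone. All 36 had at least 3 such probe sets, 523 in total, and so had a gene level, as did 15207 genes of the array. The study asked how the RNA-binding protein DAZAP1 shapes testis transcripts. One group, called Wt P21, held 3 arrays from wild-type testes at postnatal day 21. The other, called Fn adult, held 3 arrays from testes of adult mice homozygous for the Fn allele of *Dazap1*, a floxed allele that retains a Neo cassette and makes a DAZAP1 protein with an inserted segment between its RNA recognition motifs. All mice had a mixed background of C57BL/6 and 129 strains. Per the study, few Fn homozygotes survive the perinatal period, the survivors are small, and their testes hold spermatocytes but no haploid germ cells. Genotype and age changed together between the groups, so every difference below is that of Fn adult from Wt P21 and the share of each cannot be told apart. The level of the mutated gene is not analysed here and gave no check of the labels.

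Lysosomes are acidic vesicles in which hydrolases break down proteins, glycans and lipids delivered by endocytosis, phagocytosis and autophagy. A proton pump, the V-ATPase, acidifies them, heavily glycosylated membrane proteins line and shield them, and most of their soluble enzymes reach them through the mannose 6-phosphate receptors. In the testis, Sertoli cells take up dying germ cells and the residual bodies that spermatids shed and degrade them in lysosomes, macrophages lie in the interstitium between the tubules, and Leydig cells draw cholesterol for steroid synthesis partly from lipoprotein esters that the lysosomal acid lipase splits. Transcription factors of the TFEB family bind the CLEAR element, an E-box with the core CACGTG that is found near the start sites of many lysosomal genes.

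The promoters are shown first because this core is known from the promoters of many lysosomal genes. The RefSeq promoter table (build GRCm38.p6, 250 bases before to 50 bases after each gene start) held 31 of the 36 genes. CACGTG, which reads the same on both strands, stood in 11 of the 31 promoters (35.5%), against 10.4% of the 12159 genes that had both a gene level and a promoter and 8.09% of all 27025 genes in the table. The longer form GTCACGTG, searched on both strands and containing the core, stood in 9 (29% against 3.83% of the genes with a gene level), and TCACGTGA, which overlaps it, in 5 (16.1% against 1.78%). The windows below were picked because they hold more than 1 match or belong to a gene that rose in the Fn adult testes. They are written 5′ to 3′ on the strand of the gene, with up to 20 flanking bases and the core in capitals.
Lamp1 (chr8:13159080-13159171, plus strand): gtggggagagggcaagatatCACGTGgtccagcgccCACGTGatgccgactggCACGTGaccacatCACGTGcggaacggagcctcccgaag
Mcoln1 (chr8:3500428-3500499, plus strand): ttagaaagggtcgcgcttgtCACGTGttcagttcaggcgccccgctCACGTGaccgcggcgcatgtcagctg
Ctsa (chr2:164833741-164833803, plus strand): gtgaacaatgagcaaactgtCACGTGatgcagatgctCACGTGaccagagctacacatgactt
Gla (chrX:134601174-134601252, minus strand): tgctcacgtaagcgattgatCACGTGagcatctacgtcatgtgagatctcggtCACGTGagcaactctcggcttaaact
Ctsd (chr7:142388047-142388077, minus strand): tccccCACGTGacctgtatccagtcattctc
Ctsd (chr7:142387900-142387945, minus strand): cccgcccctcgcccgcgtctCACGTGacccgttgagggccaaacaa
Glb1 (chr9:114401010-114401055, plus strand): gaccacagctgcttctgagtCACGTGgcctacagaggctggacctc
Gaa (chr11:119267803-119267848, plus strand): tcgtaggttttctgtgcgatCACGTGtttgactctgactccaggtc
*Lamp1* held 4 matches within 92 bases close to its gene start, while *Mcoln1*, *Ctsa* and *Gla* held a pair each within 1 window and *Ctsd* held its pair in separate windows. The other promoters with a match were those of *Atp6v0d1*, *Ctsl*, *Naglu* and *Sgsh*. A match is a description of the letters and no evidence of a factor at the site.

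Most of the 36 genes were higher in the Fn adult testes. Of the 36, 18 (50%) rose past the threshold, an adjusted p under 0.05 by limma over all genes, and none fell, nor was any lower at an unadjusted p under 0.05. Across all genes tested, 8.07% rose and 0.914% fell. The difference, given throughout as Fn adult minus Wt P21 on the log2 scale, was above 0 for 34 of the 36 (94.4%) and for 58.7% of all genes. Its median was 0.58, against 0.07 over all genes. In 29 of the 36 (80.6%) every Fn adult array lay above every Wt P21 array, which held for 25.6% of all genes, and for none of the 36 did every Fn adult array lie below, which held for 8.96%. Of the 18 that did not pass, 8 had an unadjusted p under 0.05. At that limit 26 of the 36 were higher, while of all 15207 genes 3137 were higher and 915 lower. The level was more than 1.5-fold higher in Fn adult in 18 of the 36 genes and in 8.35% of all genes.

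**Figure D1:**
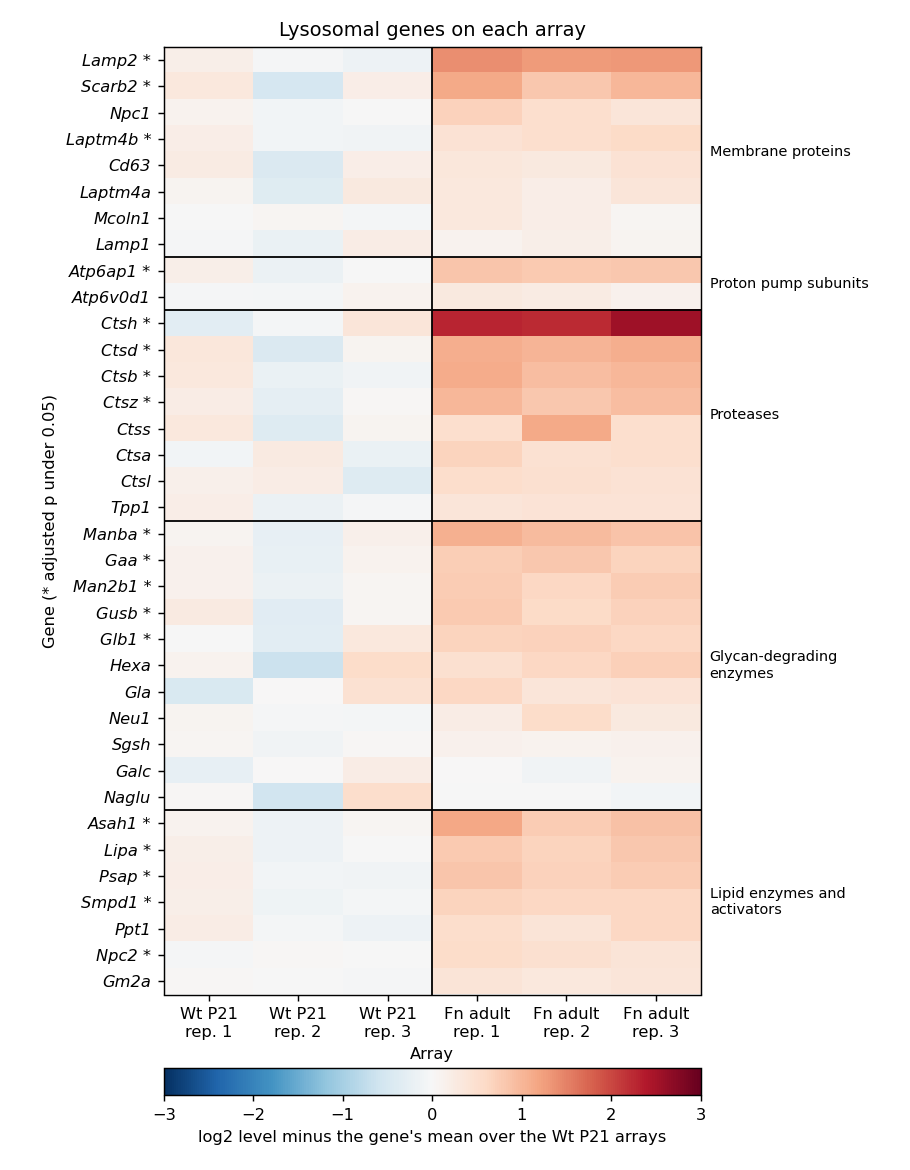
Level of each of the 36 lysosomal genes (rows, grouped by role) on the 6 arrays (columns), as the log2 gene level minus the mean of that gene over the Wt P21 arrays, with red for higher and blue for lower. The Fn adult columns are red for most rows, deepest for *Ctsh*, while *Lamp1*, *Sgsh*, *Galc* and *Naglu* stay pale and *Naglu* and *Hexa* vary within the Wt P21 columns.

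The arrays set limits to these counts. Their medians over all probe sets ran from 8.76 to 9.05 in Wt P21 and from 9.05 to 9.10 in Fn adult, and the median SD of a gene was 0.214 in Wt P21 and 0.110 in Fn adult. Replicate 3 of Wt P21 stood apart in its germ cells: 11 of 12 haploid spermatid markers stood above the average of Wt P21 replicates 1 and 2 (median shift 1.24), as were 12 of 12 pachytene spermatocyte markers (median shift 0.46). Of the lysosomal genes, 20 of 36 were higher in it, as were 10118 of all 15207 genes. The median shift was 0.07 in the 36 and 0.14 over all genes. Without this array 21 of the 36 rose (background 16.1%). Replicate 2 of Wt P21 was the lowest of its group for 23 of the 36 genes and for 53.4% of all genes, and without it 14 of the 36 rose (background 4.43%). Without Fn adult replicate 1, 2 or 3 the count was 2, 8 or 5 (background 2.01%, 2.9% and 2.57%). The median difference of the 36 lay between 0.51 and 0.65 when any 1 array was left out. As deposited, 1227 genes of the array rose and 139 fell. Quantile normalization moved the median of all genes from 0.07 to -0.05 and gave 826 and 452 (5.43% and 2.97%), with 16 of the 36 lysosomal genes higher, none lower and a median of 0.50.

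Among the proteases, which cleave the proteins that enter the lysosome, 4 of 8 rose (*Ctsh*, *Ctsd*, *Ctsb* and *Ctsz*) and the median difference was 0.81. Cathepsin H (*Ctsh*), a cysteine protease that acts mainly as an aminopeptidase, showed the largest difference of the 36 and ranked 41 among all genes counted down from the highest difference. Its gene level was 8.47, 8.72 and 9.15 on the Wt P21 arrays and 11.07, 11.02 and 11.33 on the Fn adult arrays. The groups were far apart, and the difference of 2.36 (SE 0.19, 5.13-fold, adjusted p = 0.00035, n = 3 arrays per group) was several times the SD within either group (0.35 and 0.16). Cathepsin D (*Ctsd*), the main aspartic protease of the lysosome, measured 11.04, 10.26 and 10.77 in Wt P21 and 11.77, 11.72 and 11.78 in Fn adult. Its Fn adult arrays were nearly equal, the Wt P21 arrays were spread, with replicate 2 lowest, and the difference was 1.07 (SE 0.19, 2.10-fold, adjusted p = 0.0141).

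Cathepsin B (*Ctsb*), an abundant cysteine protease, measured 11.15, 10.64 and 10.73 in Wt P21 and 11.95, 11.76 and 11.84 in Fn adult, with a difference of 1.01 (SE 0.16, 2.01-fold, adjusted p = 0.00827). Cathepsin Z (*Ctsz*), a carboxypeptidase of the same family, was lower in level, at 9.68, 9.19 and 9.50 against 10.44, 10.26 and 10.39, with a difference of 0.91 (SE 0.15, 1.88-fold, adjusted p = 0.0111). Neither gene overlapped between the groups. The other 4 proteases did not pass, although their groups did not overlap either. They were cathepsin S (*Ctss*, best known from antigen-presenting cells, 0.71, adjusted p = 0.0912), cathepsin A (*Ctsa*, a serine carboxypeptidase that also protects *Glb1* and *Neu1*, 0.55, 0.0616), cathepsin L (*Ctsl*, which rat Sertoli cells secrete, 0.47, 0.128) and tripeptidyl peptidase (*Tpp1*, 0.40, 0.104). For *Ctss* the spread was as wide in Fn adult as in Wt P21 (SD 0.37 and 0.35), because replicate 2 of Fn adult stood at 9.19 and the others at 8.54 and 8.56.

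Among the membrane proteins 3 of 8 rose (*Lamp2*, *Scarb2* and *Laptm4b*), with a median of 0.43. LAMP-2 and LAMP-1 are the chief glycoproteins of the lysosomal membrane, and the values of their genes are given side by side. *Lamp2* measured 10.69, 10.47 and 10.37 in Wt P21 and 11.90, 11.79 and 11.81 in Fn adult, a difference in gene level of 1.32 (SE 0.13, 2.50-fold, adjusted p = 0.00108). This value depends on how the probe sets are summarised: it was 0.70 (adjusted p = 0.00776) with the mean of the probe sets and 0.54 (adjusted p = 0.0142) when each probe set was centred before the median, so the gene rose under each summary but by less than the median gave. *Lamp1* measured 12.46, 12.30 and 12.71 against 12.61, 12.66 and 12.57. Its groups overlapped, and the difference of 0.12 (SE 0.14, 95% interval -0.20 to 0.44, adjusted p = 0.620) did not pass.

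*Scarb2* encodes LIMP-2, the receptor that carries glucocerebrosidase to the lysosome. Its level was 8.75, 7.92 and 8.64 in Wt P21 and 9.57, 9.24 and 9.43 in Fn adult, without overlap, with replicate 2 of Wt P21 well below its group and a difference of 0.98 (SE 0.22, 1.97-fold, adjusted p = 0.0306). *Laptm4b*, a membrane protein of late endosomes and lysosomes, rose by 0.51 (adjusted p = 0.0498), and its relative *Laptm4a*, which overlapped between the groups, gave 0.29 (adjusted p = 0.330). *Npc1*, the membrane protein that exports cholesterol from the lysosome, gave 0.51 with an adjusted p of 0.0508, just outside the threshold. The tetraspanin *Cd63* gave 0.35 (adjusted p = 0.267) and the cation channel gene *Mcoln1* gave 0.19 (adjusted p = 0.359).

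The chosen set held a pair of genes of the proton pump. *Atp6ap1*, an accessory subunit needed for its assembly, measured 11.05, 10.69 and 10.87 in Wt P21 and 11.70, 11.65 and 11.67 in Fn adult. These groups did not overlap, the Fn adult arrays were almost equal, and the difference was 0.81 (SE 0.13, 1.75-fold, adjusted p = 0.0101). *Atp6v0d1*, a subunit of the membrane sector, gave 0.23 (adjusted p = 0.267).

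Of the 11 glycan-degrading enzymes, 5 rose (*Manba*, *Gaa*, *Man2b1*, *Gusb* and *Glb1*), with a median of 0.61. β-mannosidase (*Manba*), which removes the last mannose from N-glycan fragments, measured 7.92, 7.60 and 8.003 in Wt P21 and 8.92, 8.78 and 8.70 in Fn adult. Every Fn adult array was higher, and the difference was 0.96 (SE 0.15, 1.95-fold, adjusted p = 0.00733). The lower quartile of each array, at 7.36 to 7.56, was close to the Wt P21 level of *Manba*, and with only its brighter probe sets the difference was 0.23 (adjusted p = 0.267). The other 4 that rose were acid α-glucosidase (*Gaa*, which degrades glycogen, 0.73, adjusted p = 0.0171), α-mannosidase (*Man2b1*, 0.72, 0.0155), β-glucuronidase (*Gusb*, 0.68, 0.0446) and β-galactosidase (*Glb1*, 0.65, 0.0481). *Gusb* was about as low as *Manba* in Wt P21, with a mean of 7.87 against 7.84.

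The enzymes with the smallest differences were also in this group. Galactosylceramidase (*Galc*), which splits galactose from myelin lipids, measured 8.91, 9.18 and 9.40 in Wt P21 and 9.17, 9.06 and 9.26 in Fn adult. *Naglu*, an enzyme of heparan sulphate breakdown, measured 9.55, 8.96 and 10.06 against 9.52, 9.52 and 9.43. Both overlapped between the groups, with differences of -0.00 (95% interval -0.35 to 0.35, adjusted p = 0.993) for *Galc* and -0.03 (-0.59 to 0.53, adjusted p = 0.949) for *Naglu*, whose Wt P21 arrays were spread widely (SD 0.55). *Sgsh*, which acts on the same heparan sulphate, gave 0.12 (adjusted p = 0.544). The remaining 3 did not pass either: *Hexa*, the α subunit of β-hexosaminidase, gave 0.61 (adjusted p = 0.191) with a Wt P21 range from 10.01 to 11.20, *Gla*, the α-galactosidase, gave 0.47 (0.217), and the sialidase *Neu1* gave 0.35 (0.131).

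Of the 7 lipid enzymes and activators 5 rose (*Asah1*, *Lipa*, *Psap*, *Smpd1* and *Npc2*), with a median of 0.64, and none overlapped between the groups. Acid ceramidase (*Asah1*) measured 10.56, 10.29 and 10.50 in Wt P21 and 11.61, 11.21 and 11.34 in Fn adult, with a difference of 0.93 (SE 0.15, 1.91-fold, adjusted p = 0.00854). Lysosomal acid lipase (*Lipa*), which splits cholesterol esters and triglycerides, measured 9.59, 9.27 and 9.42 against 10.22, 10.11 and 10.24, with a difference of 0.76 (SE 0.13, 1.69-fold, adjusted p = 0.0121). In both genes the gap between the groups exceeded the range within either of them. Prosaposin (*Psap*), the precursor of the saposins that present sphingolipids to the enzymes, rose by 0.76 (adjusted p = 0.0127), acid sphingomyelinase (*Smpd1*) by 0.64 (0.0200) and *Npc2*, the soluble partner of *Npc1*, by 0.47 (0.0425). The palmitoyl thioesterase *Ppt1* (0.51, adjusted p = 0.0604) and the GM2 activator *Gm2a* (0.36, 0.0829) did not pass.

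**Figure D2:**
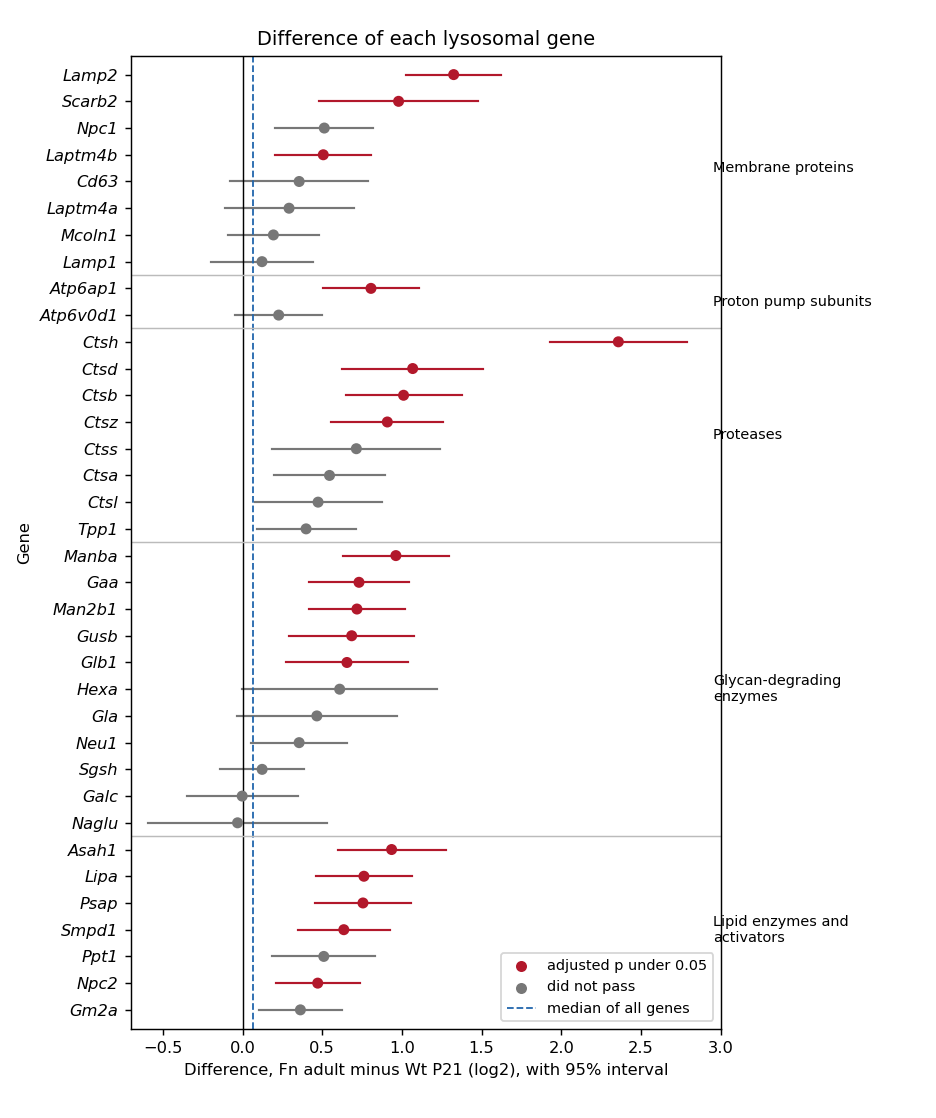
Difference in gene level, Fn adult minus Wt P21, for each of the 36 genes on the log2 scale, with the 95% interval from limma, grouped by role, and red where the adjusted p was under 0.05. *Ctsh* stands alone at 2.36, most others lie between 0.2 and 1.1, and the dashed line marks the median of all genes at 0.07.

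The promoters and the differences were then set side by side. Of the 11 genes with CACGTG in the promoter window 3 rose (*Ctsd*, *Glb1* and *Gaa*), with a median difference of 0.47, and of the 20 without it 11 rose, with a median of 0.66. Among all genes with a gene level and a promoter, 103 of the 1264 with CACGTG rose, with a median of 0.12. Of the 10895 without it 895 rose, with a median of 0.07. Whether the core bears on the differences was not tested. *Lamp1*, whose window held 4 matches, was among the genes with the smallest differences. *Ctsh*, *Ctsb*, *Asah1*, *Laptm4b* and *Npc1* had no entry in the promoter table.

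The exon array reads each gene through several probe sets, which share the RNA of the same arrays and are not replicates. Of the 523 probe sets of the 36 genes, 495 had a difference above 0, 141 (27.0%) rose and none fell, with 1 lower at an unadjusted p under 0.05. Across all 209279 probe sets with a single symbol 3.78% rose and 0.402% fell. The median difference was 0.54 over the 523 and 0.08 over all probe sets. The median probe set difference was above 0 in each of the 36 genes, and in 22 genes every probe set was above 0. At least 10 probe sets rose in each of 6 genes: 14 of 15 in *Ctsh*, 13 of 15 in *Ctsb*, 12 of 17 in *Asah1*, 12 of 28 in *Man2b1*, 11 of 22 in *Manba* and 10 of 12 in *Ctsd*. In *Galc*, *Naglu* and *Lamp1* none of the 22, 7 and 12 probe sets rose. Their median probe set differences were 0.20, 0.01 and 0.13.

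**Figure D3:**
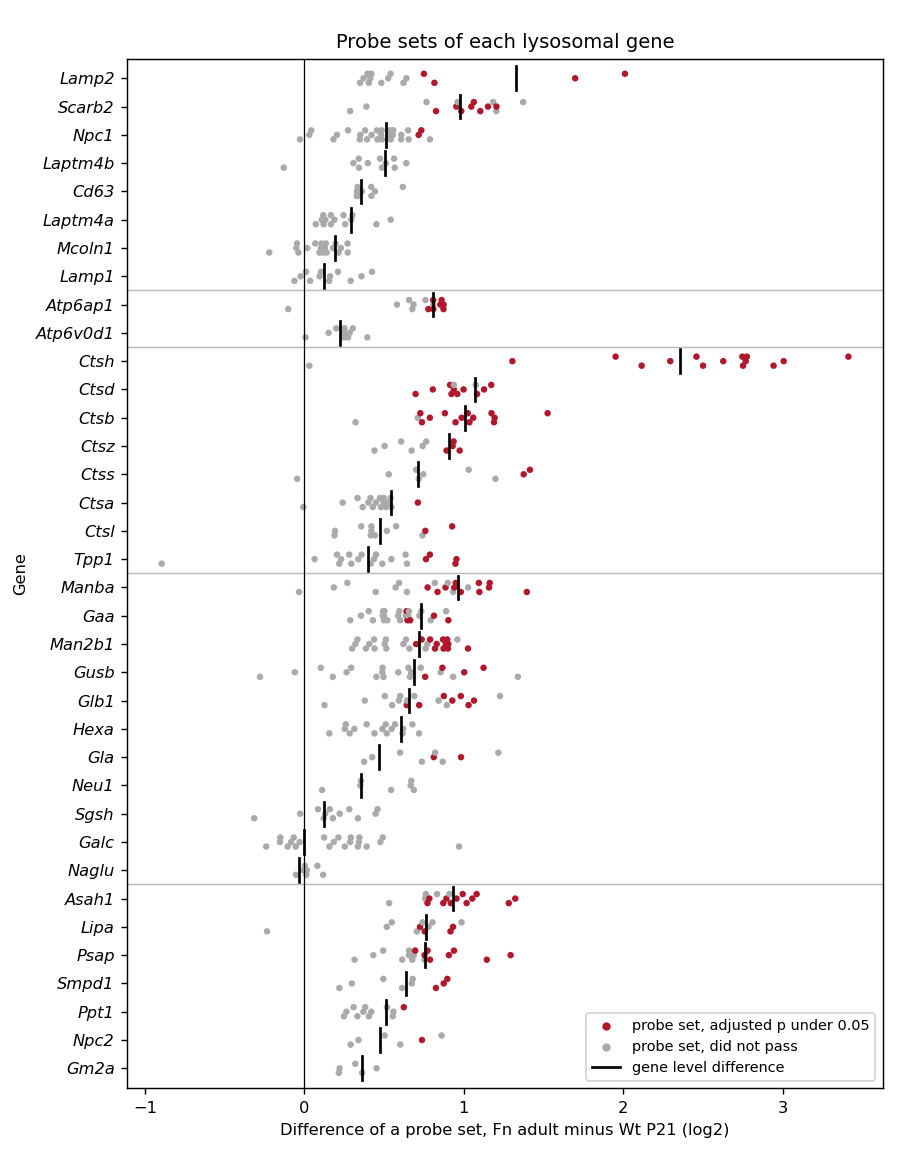
Difference of every probe set of the 36 genes (points, Fn adult minus Wt P21, log2), red where the probe set had an adjusted p under 0.05, with a black bar at the difference in gene level. The points lie to the right of 0 for most genes, and the bar of *Lamp2* at 1.32 lies to the right of 13 of its 15 points.

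In *Lamp2* all 15 probe sets were above 0, 4 rose, and the median of their differences was 0.53. The gene level difference of 1.32 exceeded that of 13 of the 15. The 2 that differed most were probe set 4870667, at 8.84, 7.98 and 8.95 in Wt P21 and 10.72, 10.49 and 10.60 in Fn adult (2.01, adjusted p = 0.00818), and probe set 4531027, at 10.67, 9.39 and 10.37 against 11.93, 11.79 and 11.81 (1.70, adjusted p = 0.0248). Both were distinctly lower on every Wt P21 array than on any Fn adult array.

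In *Ctsh* all but 1 probe set rose. The 14 probe sets that rose had differences from 1.30 to 3.41, while the remaining one, 4567697, measured 11.09, 10.93 and 10.71 in Wt P21 and 10.86, 10.87 and 11.10 in Fn adult. It did not follow the rest of the gene, with a difference of 0.03 (adjusted p = 0.936). The annotation used here does not tie these probe sets to exons.

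**Figure D4:**
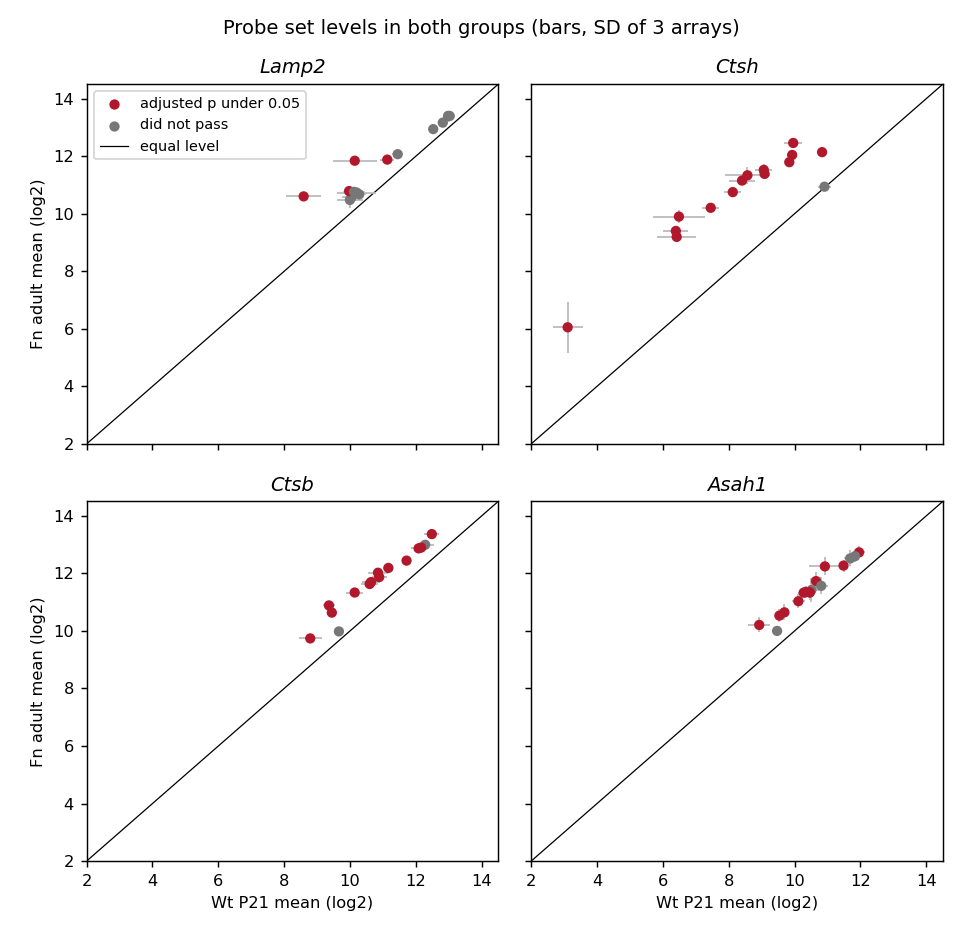
Mean log2 level of each probe set in Fn adult (vertical) against Wt P21 (horizontal) for *Lamp2*, *Ctsh*, *Ctsb* and *Asah1*, with bars for the SD of 3 arrays, a line of equal level and red for an adjusted p under 0.05. The points of *Ctsh* lie well above the line except for 1 point on it at about 11, and 2 points of *Lamp2* stand above the others.

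To ask whether single exons departed from their gene, as the array was designed to show, a splicing index was computed, which is the log2 value of a probe set less that of its gene on the same array. Of the 36 genes, 30 had probe sets bright enough for this test (377 probe sets). By limma none of the 377 passed, against 0.0142% of all 91798 tested (13 probe sets). At an unadjusted p under 0.05 there were 64, of which 47 were lower and 17 higher in Fn adult. The share of all tested probe sets at this limit is not given here, so nothing about exon usage is read from that count. With a trend and robust variances 2 passed (*Ctsh* 4567697 and *Lamp2* 5214869), and diffSplice of limma, which sets a probe set against the others of its gene, called 7, in *Ctsh*, *Lamp2*, *Ctsb* and *Atp6ap1*. The 0.0142% belongs to the main fit alone. The shares of all probe sets under these alternatives are not given here, so nothing about exon usage is read from their calls either.

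The lowest splicing index difference was that of *Ctsh* 4567697, at -2.33 (SE 0.26, adjusted p = 0.104). Its index was 2.62, 2.21 and 1.55 on the Wt P21 arrays and -0.22, -0.15 and -0.23 on the Fn adult arrays, without overlap, and did not pass. The highest was that of *Lamp2* 4870667, at 0.69 (SE 0.26, adjusted p = 0.571). Since the index subtracts the gene level, the indices of the other *Lamp2* probe sets carry the gene level difference of 1.32 with them. All 12 probe sets of *Lamp1* were bright enough, and their splicing index differences ran from -0.18 to 0.30 with adjusted p of 0.675 or more.

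Further genes of the lysosome were read in the same fit, where 8.07% of all genes rose and 0.914% fell. Of 37 further lysosomal enzymes and proteins measured (of 42 listed), 10 rose and none fell, with a median of 0.37. The largest differences were those of *Ctsc*, the cathepsin that activates granule proteases (1.30, adjusted p = 0.000686), the α-fucosidase gene *Fuca1* (1.15, 0.00845), *Hgsnat*, which acts in heparan sulphate breakdown beside *Naglu* and *Sgsh* (1.07, 0.0279), and the cathepsin gene *Ctso* (0.99, 0.00550). Of 33 of these with a promoter in the table, 9 (27.3%) held CACGTG. Of 22 other V-ATPase subunits and accessory proteins 4 rose, with a median of 0.14: *Atp6v0a1* (0.73), *Atp6ap2* (0.71), *Atp6v0e* (0.55) and *Tcirg1* (0.53). The list was mixed, with 8 of the 22 below 0. By limma 2 were lower at an unadjusted p under 0.05, *Atp6v1g2* (-0.42) and *Atp6v1d* (-0.40), and 8 were higher.

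Of 15 genes for the sorting of lysosomal enzymes 3 rose, with a median of 0.25. These make or read the mannose 6-phosphate tag: *Gnptab* (0.66, adjusted p = 0.0285) and *Nagpa* (0.55, 0.0441) encode the enzymes that build and uncover it, and *Igf2r* (0.50, 0.0452) encodes one of its receptors. *M6pr*, the gene of another receptor, had 2 probe sets and so no gene level. *Gnptg*, a further gene for the enzyme that builds the tag, did not pass by limma (0.24, adjusted p = 0.310). With quantile normalization none of the sorting genes rose. Of 17 genes for transcription factors of lysosomal genes and for docking of mTORC1, the kinase complex that holds those factors in check, only *Rptor* rose (0.54, adjusted p = 0.0462), and the median was 0.21. With quantile normalization none of these rose either. None of the V-ATPase, sorting or regulator genes fell past the threshold.

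The RNA came from whole testes, so that more cells of a type and more RNA per cell cannot be told apart. Markers of the cell types that a testis holds were read in the same fit. Of 13 macrophage markers 9 rose and none fell, with a median of 0.70 and a mean level of 8.30 to 8.38 on the Wt P21 arrays and 8.94 to 9.01 on the Fn adult arrays. They included the lysozyme gene *Lyz2* (1.32), the mannose receptor *Mrc1* (1.15), *Ptprc* (0.93) and *Csf1r* (0.82). All 8 measured Leydig cell markers (of 10 listed) rose, with a median of 1.61 and a mean level of 10.10 to 10.43 against 11.99 to 12.20, led by *Ptgds* (3.85), *Hsd17b3* (2.84), *Star* (2.11) and *Cyp11a1* (1.68). On the same arrays the mean level of the 36 lysosomal genes was 10.05 to 10.31 in Wt P21 and 10.82 to 10.88 in Fn adult.

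Of 12 Sertoli cell markers 4 rose and 1 fell (median 0.35, mean level 10.62 to 10.93 against 11.09 to 11.11): transferrin (*Trf*, 1.08), *Tsx* (0.67) and *Amhr2* (0.67) were among those that rose, and *Amh*, a marker of immature Sertoli cells, fell by 0.68. None of 6 peritubular myoid markers passed by limma (*Des* 0.40 and *Cnn1* -0.36 were the largest in size, 3 of 6 were below 0, and 1 was higher at an unadjusted p under 0.05). None of 6 endothelial markers passed either (*Tek* 0.42 and *Vwf* 0.40, with 3 of 6 below 0, a median of 0.10 and 2 higher at an unadjusted p under 0.05). Of 10 spermatogonia markers 2 rose (*Kit* 1.08 and *Etv5* 0.46), while 6 were below 0 and the median was -0.10. Of 12 pachytene spermatocyte markers 2 fell (*Ybx2* by 0.59 and *Piwil1* by 0.50) and all 12 differences were below 0, with a median of -0.43.

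None of 12 haploid spermatid markers passed by limma, with 2 higher at an unadjusted p under 0.05. Their median was 0.28 and 4 of 12 were below 0. The largest in size were *Prm1* (1.09, adjusted p = 0.0917) and *Acrv1* (1.01, adjusted p = 0.271). Without Wt P21 replicate 3, the array in which these markers stood high, 7 of 12 were higher and none lower (background 16.1% and 2.41%). That array was set apart by these same markers, so this count follows in part from the choice and cannot be weighed against the background. Without Fn adult replicate 1, 2 or 3 the macrophage markers called higher were 4, 4 and 4, the Leydig cell markers 5, 6 and 5 and the Sertoli cell markers 0, 1 and 0. Without Wt P21 replicate 2 they were 6, 7 and 2. The part of these shifts between cell types in the levels of the lysosomal genes was not tested.

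**Figure D5:**
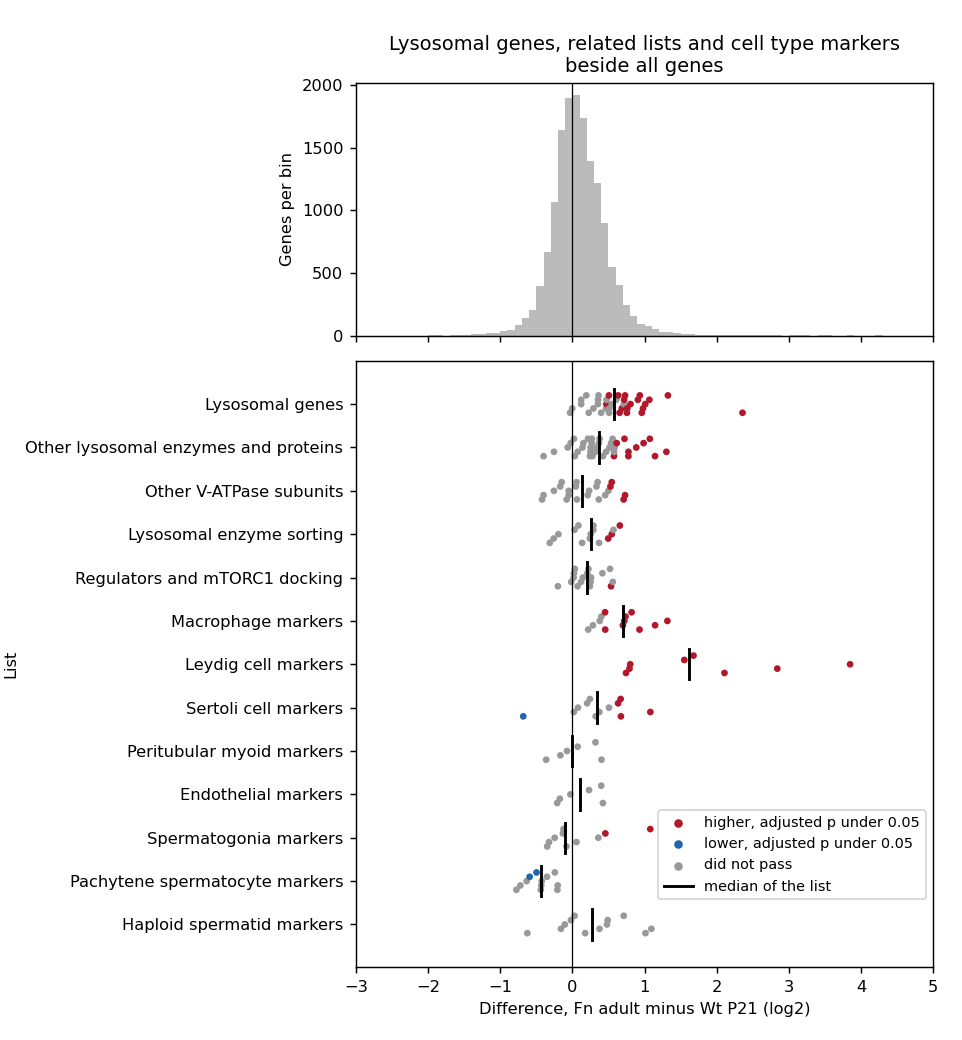
Top, number of genes of the array by their difference in gene level (Fn adult minus Wt P21, log2). Bottom, the difference of each gene (points) in the lysosomal set, the related lists and the cell type markers, with a bar at the median of each list; genes beyond -3 or 5 are not drawn. The lysosomal genes have a median of 0.58, between that of the macrophage markers (0.70) and that of the other lysosomal genes (0.37), and the Leydig cell markers reach 3.85.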

How the data were processed

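Total RNA of 6 testis samples, extracted with Trizol, was amplified with the Affymetrix WT kit, labelled with biotin and hybridised to Mouse Exon 1.0 ST arrays. The deposited values are log2 values, 1 per probe set and array (229581 probe sets), made by the authors from the scanned arrays. The submitters' notes name build mm8 and the methods name the EASANA system for the exon arrays. The background correction and normalization are not given in the sources used here, so the values were used as deposited. Probe sets were named from the platform annotation: 209279 carried 1 gene symbol, 4446 several and 15856 none, and only the first were used. RefSeq symbols matched 14190 of 16380 array symbols directly and 2145 by synonym, which left 45.

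A gene level is the median over its probe sets, for genes with at least 3. Differences were tested two-sided with lmFit and eBayes of limma (version 3.58.1, R 4.3.3, the data.table package, version 1.17.8), all 6 arrays and no covariate, with Benjamini-Hochberg adjustment over all genes or probe sets and a threshold of 0.05. The splicing index was tested for probe sets whose own mean and gene mean exceeded the median probe set (8.99). The fits were checked on simulated data with the same spread in both groups. The arrays had a wider spread in Wt P21 than in Fn adult (median SD 0.214 and 0.110), which that check does not cover. The labels call the arrays biological replicates and the study speaks of 3 independent experiments with different RNA preparations. The number of arrays limits the precision.

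The members and the lists were chosen with earlier results of these data known. Values on each array are given for the 10 genes with the largest difference past the threshold and the 3 with the smallest, and up to 4 genes are named in each other list, or 2 where none passed. Replicate numbers gave no steady sign of pairing between the arrays, and the main fit used none. Alternatives were quantile normalization, leaving out each array, a replicate block, trended and robust variances, the mean of probe sets, brighter probe sets, a level filter, diffSplice and, added after the data were seen, probe sets centred before the median. Promoters were RefSeq windows of GRCm38.p6. No coordinates of another build were used.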

Additional observations from a re-analysis of the deposited data

How the results depend on the processing

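Across 13 alternatives none of the 36 genes was called lower, and 18 was the main count of those called higher. Only *Ctsh* (difference 2.03 to 2.55) and *Lamp2* (0.54 to 1.42) passed in every alternative. The others lost the call in at least 1, with highest adjusted p from 0.0515 (*Asah1*) to 0.267 (*Manba*). The least steady calls were those of *Npc2*, lost in 8 of the 13, *Glb1*, lost in 6, and *Laptm4b* and *Gusb*, lost in 5 each. *Ctsd*, *Scarb2*, *Psap*, *Gaa* and *Man2b1* lost it without each Fn adult array, while *Ctsb* and *Asah1* lost it without Fn adult replicate 1 alone. Leaving out 1 array gave 2 to 21 genes (background 2.01% to 16.1%). It gave 2 to 32 genes of the related pathway lists (main count 18), 16 to 179 member probe sets higher (main count 141) and 0 to 1 lower. With quantile normalization 10 pathway genes were higher and 1 lower, 16 of the 18 lysosomal calls remained and 1 member probe set was lower. The mean of probe sets gave 1 lower pathway gene and 26 lysosomal genes higher. The share of all genes called higher was also larger there, at 13.1% against 8.07% in the main fit. Trended and robust variances gave 1 member probe set lower and 2 splicing index calls, and diffSplice gave 7. The cause of these shifts was not tested. For the probe set and splicing index counts of the alternatives the share of all probe sets is not given here, so those counts are not weighed.

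Same-numbered arrays deviated from their group means with correlations of 0.236, -0.108 and -0.0166, which gave no steady sign of pairing by number. So few arrays cannot show that pairing is absent. Of the same-numbered arrays, only those numbered 1 matched each other best, while Wt P21 replicate 2 and Fn adult replicate 3 matched each other best, as did Wt P21 replicate 3 and Fn adult replicate 2. A replicate block gave 15 of the 36 genes, 10 pathway genes and 59 member probe sets higher, with 5.85% of all genes higher.

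The sign turned for 3 genes that never passed. *Sgsh* was -0.044 with quantile normalization. *Galc* was 0.18 with the mean of probe sets, 0.22 with brighter probe sets and 0.15 with centred probe sets, and -0.13 to 0.11 without 1 array. *Naglu* was 0.024 with the mean of probe sets, 0.041 with centred probe sets and -0.31 to 0.24 without 1 array. Among the markers, quantile normalization and a replicate block left 6 macrophage genes higher each (main count 9). The level filter left 6 as well, but *Cd163*, *Itgam* and *Ptprc*, called in the main fit, lay below its limit of 7.55 and were not tested in it. Brighter probe sets alone left 4, in a fit of 9503 genes in place of 15207. *Gla* had too few brighter probe sets for that alternative.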
